A study of Homo sapiens with 4 samples.

Results

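The protein arginine methyltransferase (PRMT) family was followed in U2OS cells, an established human osteosarcoma line, through 8 of its genes, PRMT1, PRMT2, PRMT3, CARM1 (also called PRMT4), PRMT5, PRMT6, PRMT7 and PRMT9. The genes were taken by symbol, with no threshold on a measured value. Each symbol matched 1 of the 60676 Ensembl genes in the count and TPM tables, and all 8 passed the filter on low values that left 15446 genes. The study asked which RNAs are recovered from a nuclear lysate with LC3B, a small ubiquitin-like protein that becomes lipidated on autophagosome membranes and is also found in nuclei. It used native nuclear RNA immunoprecipitation followed by sequencing, in which antibody and lysate are combined without crosslinking, and SMART-Seq v4 libraries, made from very little polyadenylated RNA. The 4 groups were an immunoprecipitate with an anti-LC3B antibody (LC3B IP, drawn as pull-down in some figures), an immunoprecipitate with non-specific IgG as negative control (IgG IP), and an input without antibody for each of them (LC3B input, IgG input), all from U2OS cells in the same serum-containing medium with no treatment or genetic change named in the labels. With 1 library in each group there are no replicates to check a difference against, no p-value was computed, and intervals cover counting error only.

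Protein arginine methyltransferases move methyl groups from S-adenosylmethionine to arginine side chains of proteins. PRMT1, PRMT2, PRMT3, CARM1 and PRMT6 make asymmetric dimethylarginine, PRMT5 and PRMT9 make symmetric dimethylarginine, and PRMT7 makes monomethylarginine. Their substrates include histones and many RNA-binding proteins, and PRMT1 carries out most asymmetric methylation in mammalian cells. PRMT1 mRNA has been reported as a target of LC3B, and the other genes of the family serve here as its comparison.

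Depth was alike, with 10456770 reads in the LC3B IP, 10000914 in the IgG IP, and inputs of 10782146 for LC3B and 10886762 for IgG. The libraries differed in 2 respects that touch every value below. Mitochondrial genes took 0.77% of the reads in the LC3B IP and 1.76% in the IgG IP, against 20.77% and 22.8% in the LC3B and IgG inputs, so CPM, reads of a gene scaled to a common library total, were computed on totals without chromosome MT. Reads fell on 23915 genes in the LC3B IP but on 14440 in the IgG IP, against 23082 and 22947 in the LC3B and IgG inputs. Of 7 markers of mesenchymal cells and osteosarcoma, 6 had at least 1 CPM in every library. The exception was COL1A2, a collagen chain, with at most 3 reads. Of 8 markers of other cell types, 6 stayed under 1 CPM in every library, and the highest, EPCAM, an epithelial adhesion molecule, had 17.7 CPM in the LC3B IP, 25.8 in the IgG IP, and 15.0 and 18.2 in the LC3B and IgG inputs. The other 1 above that level was GFAP, a glial filament, at up to 2.11 CPM. Calls used the exact 95% counting interval of each fold: an interval wholly at or above 2 was called higher, and one wholly at or below 0.5 lower.

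In the inputs the family spanned a wide range of levels. These are bulk libraries, in which fewer cells with a transcript and less of it per cell cannot be told apart. Levels of different genes were compared in TPM, a share corrected for transcript length. PRMT1 stood first, with 180 and 170 TPM in the LC3B and IgG inputs, above 94.5% and 94.3% of the genes tested. PRMT2, an SH3-domain member that acts as a transcriptional coactivator, had 61.4 and 62.9 TPM in the same order, and PRMT5, the main symmetric enzyme, had 59.5 and 57.2. PRMT2 thus lay slightly above PRMT5 in both inputs, a small difference in TPM values that carry no interval here. PRMT3 followed with 15.8 and 13.2 TPM, PRMT7 with 13.3 and 12.1 and PRMT6 with 11.8 and 13.0, and the ranges of these neighbours overlapped. PRMT9 had 4.63 and 4.33 TPM and CARM1 1.83 and 1.56, so that the lowest transcript lay above only 19.9% and 18.7% of the genes tested. PRMT8, a family member best known from brain that was singled out here after its values were seen, had 0 reads in all 4 libraries, which allows up to 0.289 CPM in the LC3B IP, 0.305 in the IgG IP, and 0.351 and 0.357 in the LC3B and IgG inputs.

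The family took similar shares of reads in the inputs. Folds of the LC3B input over the IgG input lay between 0.881 for PRMT6 (95% counting interval 0.750 to 1.04) and 1.22 for PRMT7 (0.971 to 1.53), every interval of the 8 genes held 1, and 0 were called. Over all genes tested, 0.136% were called higher and 0.155% lower between the inputs. The central 95% of these folds ran from 0.867 to 1.16 among genes at or above 100 CPM in the inputs, from 0.812 to 1.29 at 30 to 100 CPM, from 0.715 to 1.53 at 10 to 30 CPM and from 0.438 to 2.52 at 1 to 10 CPM, which gives the spread between libraries without antibody.

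Over its input, the LC3B IP held the 8 mRNAs between 0.490-fold (PRMT3) and 1.30-fold (PRMT6), whereas the IgG IP ran from 0 reads (PRMT3) to 3.82-fold (PRMT9). Over the LC3B input, 0 of the 8 genes were called higher and 0 lower, beside 1.4% higher and 4.57% lower among all genes tested. With mitochondrial genes kept in the totals, the median log2 fold of all genes moved to 0.34 over the LC3B input (0.01 without them) and to -0.10 for the IgG IP over its input (-0.45 without them). The calls over the LC3B input then became 880 higher and 265 lower, compared with 216 and 706, and still held 0 of the 8 genes, and those of the IgG IP over its input became 2355 higher and 4440 lower, compared with 1495 and 5200. The folds of PRMT1, PRMT2, CARM1, PRMT5, PRMT6 and PRMT7 lay between 1.18 and 1.30, with the interval of CARM1 holding 1, and PRMT3 and PRMT9 stood below 1. In the IgG IP over its input the same 6 genes ran from 0.0503 (CARM1) to 3.04 (PRMT5). In the IgG IP over its input, 3 of the 8 genes (PRMT5, PRMT7 and PRMT9) were called higher, beside 9.68% of all genes tested, and 2 (PRMT3 and CARM1) were called lower, beside 33.7%. Between the IPs, 2 of the 8 genes (PRMT3 and CARM1) were higher with LC3B, beside 33.8% of all genes tested, and 2 (PRMT5 and PRMT9) were lower, beside 9.52%. The input-corrected ratio, which divides the fold of the LC3B IP over its input by that of the IgG IP over its own, was called higher for PRMT3 and CARM1, 2 of the 8 genes beside 29.1% of all genes tested, and lower for PRMT5 and PRMT9, 2 of 8 beside 7.65%. The comparisons share libraries: each of these 4 genes was also called in the IgG IP over its input, in the opposite direction. The median log2 fold of the 8 genes, with 0.5 reads added to each count, was 0.31 over the LC3B input, 0.35 over the IgG input for the IgG IP, and 0.04 between the IPs, against 0.01, -0.45 and 0.43 over all genes tested.

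**Figure D1:**
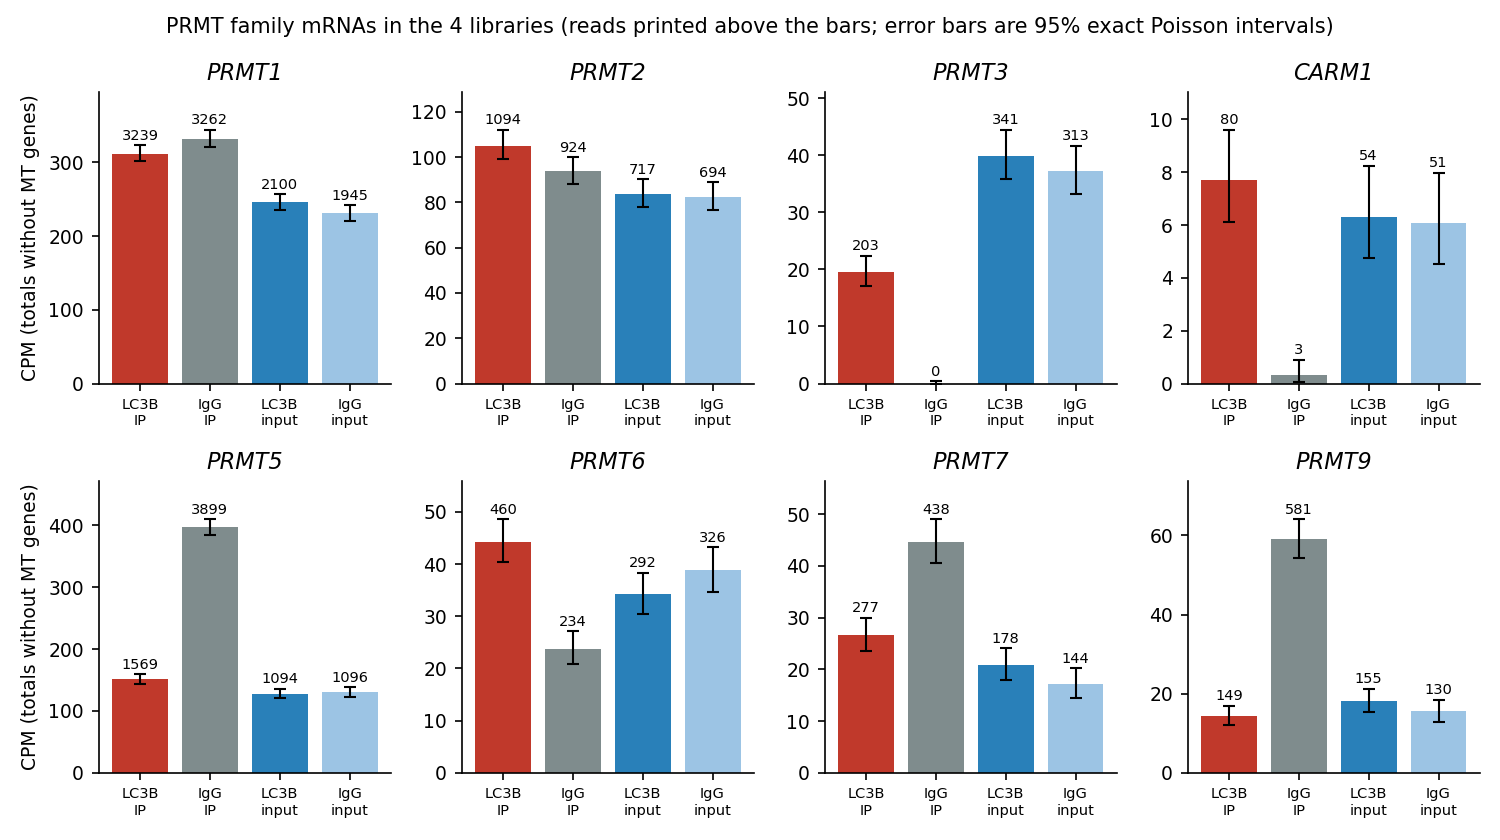
Level of each PRMT family mRNA in CPM on totals without mitochondrial genes (vertical axes start at 0 and differ between panels) in the LC3B IP, the IgG IP, the LC3B input and the IgG input, with the reads above each bar and 95% exact Poisson intervals as error bars. The inputs are alike in each panel, while the IgG IP runs from 0 reads for PRMT3 to 3899 reads for PRMT5.

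PRMT1 (ENSG00000126457, chromosome 19, 49675786 to 49689029, plus strand, build hg38) took about the same share of reads in both IPs. A share of reads does not give the amount of RNA that an antibody recovered. It had 312 CPM (3239 reads, 95% Poisson interval 302 to 323 CPM) in the LC3B IP and 332 CPM (3262 reads, 321 to 344) in the IgG IP, against 246 CPM (2100 reads) in the LC3B input and, for IgG, an input of 231 CPM (1945 reads). Both IPs thus stood above both inputs, and the LC3B IP stood slightly below the IgG IP. LC3B over IgG gave a fold of 0.940 (0.895 to 0.987), the LC3B IP over its input 1.27 (1.20 to 1.34), and the IgG IP over its input 1.43 (1.36 to 1.52), all uncalled. The input-corrected ratio was 0.885 (0.818 to 0.957). Among genes whose inputs averaged 100 CPM or more, 49.4% had a lower fold of LC3B over IgG than PRMT1, 77.6% a lower fold of LC3B over its input, and 82.7% a lower fold of IgG over its input. PRMT1 thus stood at the middle of its level class between the IPs and in the upper part of it over either input. The folds of 1.27 and 1.43 lie outside the range of 0.867 to 1.16 seen between the inputs, but so do those of many genes of this class, whose central 95% ran from 0.322 to 1.94 with LC3B and from 0.197 to 2.28 with IgG.

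PRMT2 (ENSG00000160310, chromosome 21, 46635595 to 46665124, plus strand) came closest to PRMT1 within the family. Its levels were 105 CPM (1094 reads) in the LC3B IP and 94.1 CPM (924 reads) in the IgG IP, against 83.9 CPM (717 reads) in the LC3B input and, for IgG, an input of 82.6 CPM (694 reads). Between the IPs, LC3B over IgG, the fold was 1.12 (1.03 to 1.22), and the folds over input were 1.26 (1.14 to 1.38) with LC3B and 1.14 (1.03 to 1.26) with IgG. None of these was called, and PRMT2 lay at the middle of its level class between the IPs, with 50.1% of the genes at 30 to 100 CPM below it.

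PRMT6 (ENSG00000198890, chromosome 1, 107056674 to 107067636, plus strand), a nuclear enzyme that methylates histone H3, had 44.3 CPM (460 reads) in the LC3B IP and 23.8 CPM (234 reads) in the IgG IP, against 34.2 CPM (292 reads) in the LC3B input and, for IgG, an input of 38.8 CPM (326 reads). It was the member whose LC3B IP stood above its input and whose IgG IP stood below its own, each with a counting interval away from 1. These intervals treat reads as independent, which PCR reads without molecular identifiers are not. The fold of LC3B over IgG was 1.86 (1.59 to 2.19), uncalled, and the folds over input were 1.30 (1.12 to 1.51) with LC3B and 0.614 (0.517 to 0.729) with IgG. At 30 to 100 CPM, 72.2% of the genes had a lower fold of LC3B over IgG, and 34.4% had a lower fold of IgG over its input.

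PRMT3 and CARM1 were nearly or wholly missing from the IgG IP and present in the other libraries. PRMT3 (ENSG00000185238, chromosome 11, 20387558 to 20509338, plus strand), a mainly cytoplasmic enzyme that methylates the ribosomal protein RPS2, had 19.6 CPM (203 reads) in the LC3B IP and 0 reads in the IgG IP, against 39.9 CPM (341 reads) in the LC3B input and, for IgG, an input of 37.2 CPM (313 reads). A count of 0 in the IgG IP was given a floor of 3 reads, or 0.305 CPM, which covers counting error of reads only. On that floor PRMT3 was at least 64.1-fold higher with LC3B than with IgG and at least 122-fold lower in the IgG IP than in its input. Its fold over the LC3B input was 0.490 (0.410 to 0.585), the lowest of the family, so the called difference between the IPs went together with a level below input in both of them. In the IgG IP 102 of the 3583 genes at 30 to 100 CPM (2.85%) had 0 reads, and 0 of them did in the other 3 libraries.

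CARM1 (ENSG00000142453, chromosome 19, 10871513 to 10923070, plus strand), a transcriptional coactivator that methylates histone H3, was the lowest member in the inputs. It had 7.71 CPM (80 reads, 6.11 to 9.60 CPM) in the LC3B IP and 0.305 CPM (3 reads, 0.063 to 0.892) in the IgG IP, against 6.32 CPM (54 reads) in the LC3B input and, for IgG, an input of 6.07 CPM (51 reads). The LC3B IP and the inputs overlapped within counting error, with a fold over the LC3B input of 1.22 (0.853 to 1.76). LC3B over IgG stood at 25.2 (8.33 to 125), called higher, and the IgG IP over its input at 0.0503 (0.0100 to 0.156), called lower. Such values were common at this level: at 1 to 10 CPM in the inputs, 51.7% of 5586 genes were called higher with LC3B than with IgG, 41.2% had 0 reads in the IgG IP, and 57.8% had a lower fold of LC3B over IgG than CARM1.

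PRMT5 and PRMT9, the symmetric enzymes, were most abundant in the IgG IP, as were PRMT7 and, by a smaller margin, PRMT1. PRMT5 (ENSG00000100462, chromosome 14, 22920525 to 22929408, minus strand), which acts in a complex with WDR77 and methylates Sm proteins of the spliceosome, had 151 CPM (1569 reads, 144 to 159 CPM) in the LC3B IP and 397 CPM (3899 reads, 385 to 410) in the IgG IP, against 128 CPM (1094 reads) in the LC3B input and, for IgG, an input of 130 CPM (1096 reads). In the IgG IP it had more reads than PRMT1, but corrected for length it stayed below it, at 210 TPM against 278 TPM for PRMT1. The fold of LC3B over IgG was 0.381 (0.359 to 0.404), called lower, and the IgG IP stood 3.04-fold over its input (2.85 to 3.26), called higher. Only 3.7% of the genes of at least 100 CPM had a lower fold between the IPs, and 99.4% had a lower fold of IgG over its input. Over the LC3B input, by contrast, PRMT5 stood at 1.18 (1.09 to 1.28), near PRMT1.

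PRMT9 (ENSG00000164169, chromosome 4, 147637785 to 147684163, minus strand), which methylates the splicing factor SF3B2, had 14.4 CPM (149 reads, 12.1 to 16.9 CPM) in the LC3B IP and 59.1 CPM (581 reads, 54.4 to 64.1) in the IgG IP, against 18.1 CPM (155 reads) in the LC3B input and, for IgG, an input of 15.5 CPM (130 reads). The IgG IP stood far above the other 3 libraries, whose values lay close together. The fold of LC3B over IgG was 0.243 (0.201 to 0.291), called lower, and the IgG IP stood 3.82-fold over its input (3.16 to 4.66), called higher. Summed with the reads of the overlapping gene TMEM184C, the folds were 1.33 (1.19 to 1.48) and 1.03 (0.910 to 1.16), both uncalled. TMEM184C had 0 reads in the IgG IP, so adding it raised only the other libraries. The sum therefore cannot show why PRMT9 differed. Over the LC3B input the fold of PRMT9 alone was 0.791 (0.628 to 0.997), whereas that of the sum was 1.43 (1.27 to 1.6). Of the genes at 10 to 30 CPM, 2.0% had a lower fold between the IPs and 97.9% a lower fold of IgG over its input.

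PRMT7 (ENSG00000132600, chromosome 16, 68310974 to 68358563, plus strand), the monomethylating enzyme, resembled PRMT5 with a smaller difference. Its levels were 26.7 CPM (277 reads) in the LC3B IP and 44.6 CPM (438 reads) in the IgG IP, against 20.8 CPM (178 reads) in the LC3B input and, for IgG, an input of 17.1 CPM (144 reads). The fold of LC3B over IgG was 0.599 (0.513 to 0.698), uncalled, the fold over the LC3B input 1.28 (1.06 to 1.56), uncalled, and that of the IgG IP over its input 2.60 (2.15 to 3.16), called higher. Against the LC3B input in place of its own, the IgG IP stood at 2.14 and PRMT7 was no longer called. The deposited TPM values of PRMT7 differed more between the IPs than its reads did, with 15.8 TPM in the LC3B IP and 37.8 in the IgG IP, a fold of 0.416. Reads per TPM, which rise with the transcript length assigned by the authors' quantification, were 17.6 for PRMT7 in the LC3B IP and 11.6 in the IgG IP, against 13.4 and 12.0 in the LC3B and IgG inputs. After division by the median of each library, the highest of these 4 values exceeded the lowest 1.46-fold, compared with 1.06-fold to 1.23-fold for the other members and a median of 1.14-fold over 7054 genes with at least 100 reads in each library.

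**Figure D2:**
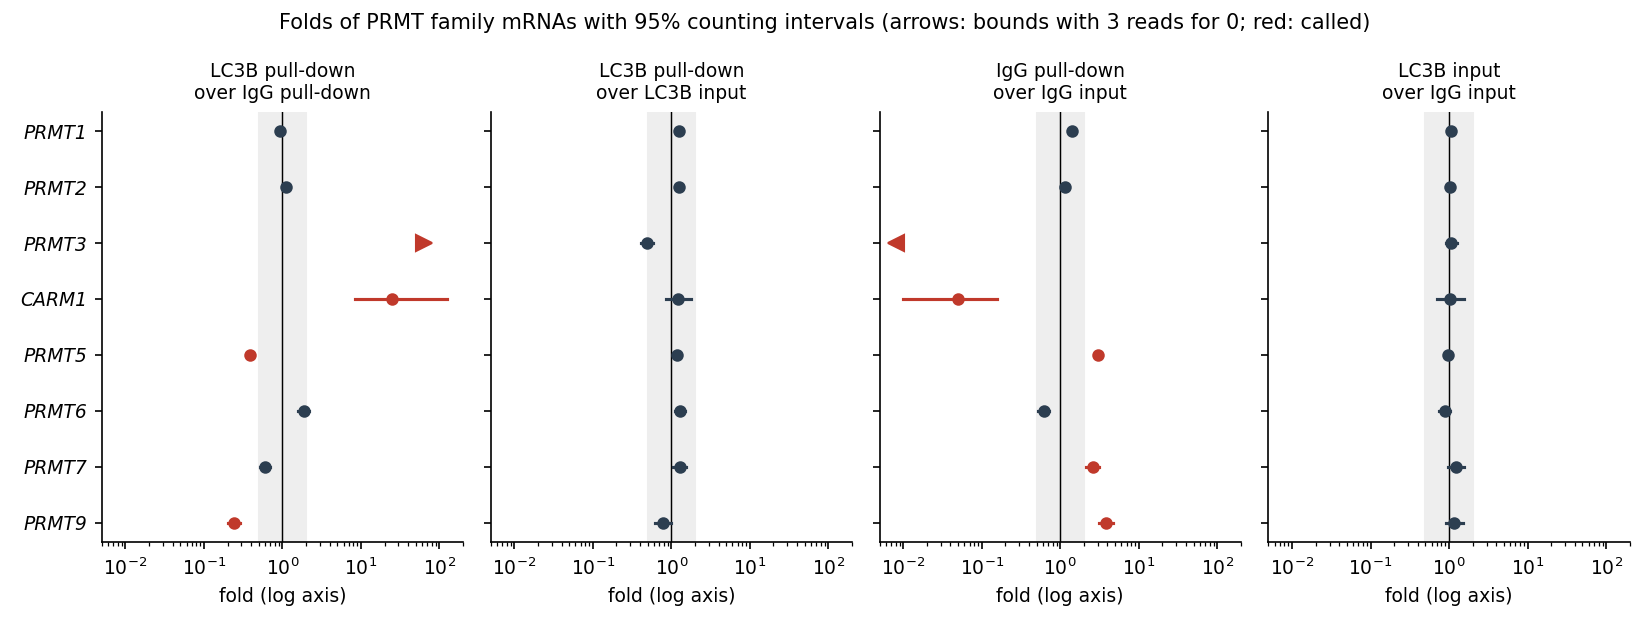
Fold (log axis) of each PRMT family mRNA in 4 comparisons, with 95% counting intervals as lines, the range from 0.5 to 2 shaded, called genes in red, and arrows for bounds taken with 3 reads where a library had 0. Called genes appear between the IPs (PRMT3, CARM1, PRMT5, PRMT9) and in the IgG IP over its input (PRMT3, CARM1, PRMT5, PRMT7, PRMT9), and none over the LC3B input or between the inputs.

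The balance within the family can be read without any library total, as reads of each gene over reads of PRMT1 in the same library. With LC3B these ratios moved little from the LC3B input for 5 of the 7 other genes: relative to PRMT1, the fold over the LC3B input was 0.989 for PRMT2, 0.961 for CARM1, 0.930 for PRMT5, 1.02 for PRMT6 and 1.01 for PRMT7. PRMT3 at 0.386 and PRMT9 at 0.623 were lower relative to PRMT1 in the LC3B IP, the PRMT9 value without the reads of the overlapping TMEM184C. In the IgG IP over its input the same quantity was 0.794 for PRMT2, 0.0351 for CARM1, 2.12 for PRMT5, 0.428 for PRMT6, 1.81 for PRMT7 and 2.66 for PRMT9. The family as a whole took 681.5 CPM in the LC3B IP and 950.8 CPM in the IgG IP, against 577.2 and 559.1 CPM in the LC3B and IgG inputs. PRMT1 supplied 45.8% of the family's reads in the LC3B IP and 34.9% in the IgG IP, against 42.6% and 41.4% in the LC3B and IgG inputs, and PRMT5 supplied 22.2% in the LC3B IP and 41.7% in the IgG IP, against 22.2% and 23.3%.

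**Figure D3:**
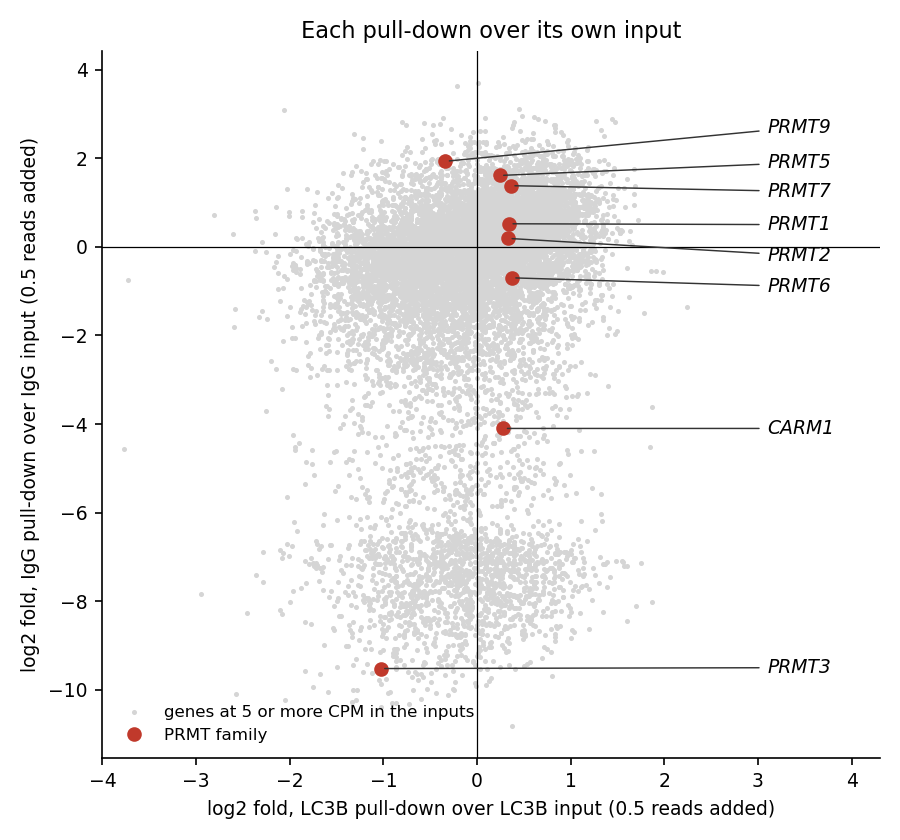
Log2 fold of the LC3B IP over the LC3B input (horizontal) against log2 fold of the IgG IP over the IgG input (vertical), both with 0.5 reads added, for the 8 PRMT family genes (red) and 11484 genes at 5 CPM or more in the inputs (grey, 13 of them beyond the horizontal range). The family spans -1.03 to 0.37 on the horizontal axis and -9.52 to 1.93 on the vertical axis, and the grey cloud is also wider vertically (SD 2.84) than horizontally (SD 0.73).

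Overlapping genes bear on 2 of these results, because the library kit does not mark strand and the counting rule for shared positions is not given in the sources used here. PRMT9 overlaps TMEM184C, a protein-coding gene on the opposite strand (chromosome 4, 147617386 to 147672044), over 34.3 kb or 73.9% of its span. TMEM184C had 667 reads in the LC3B IP and 0 in the IgG IP, against 316 and 353 in the LC3B and IgG inputs. The genes of this locus thus moved in opposite directions in the IgG IP. Their summed reads stood at 78.6 CPM in the LC3B IP and 59.1 CPM in the IgG IP, against 55.1 and 57.5 CPM in the LC3B and IgG inputs, so the sum was uncalled in the IgG IP over its input and lay above 1 between the IPs, where PRMT9 alone lay below. Whether reads were divided differently between these genes in the IgG IP was not tested, and the PRMT9 values are uncertain for this reason.

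PRMT5 overlaps its antisense long non-coding RNA PRMT5-AS1 (chromosome 14, 22918947 to 22926900, plus strand) over 6.4 kb or 71.8% of its span. PRMT5-AS1 had 253 reads in the LC3B IP and 490 in the IgG IP, against 156 and 126 in the LC3B and IgG inputs. Like PRMT5 it was highest in the IgG IP, where it was called higher at 3.33-fold over input (2.73 to 4.08), and it was uncalled at 0.489 (0.418 to 0.570) between the IPs. The sum of both genes had folds of 3.07 (2.88 to 3.28) and 0.393 (0.372 to 0.415) in these comparisons, close to those of PRMT5 alone and called in the same directions. CARM1 overlaps YIPF2 over 0.9 kb, PRMT1, PRMT2 and PRMT7 overlap only features with at most 8 reads in any library, and PRMT3 and PRMT6 overlap none.

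**Figure D4:**
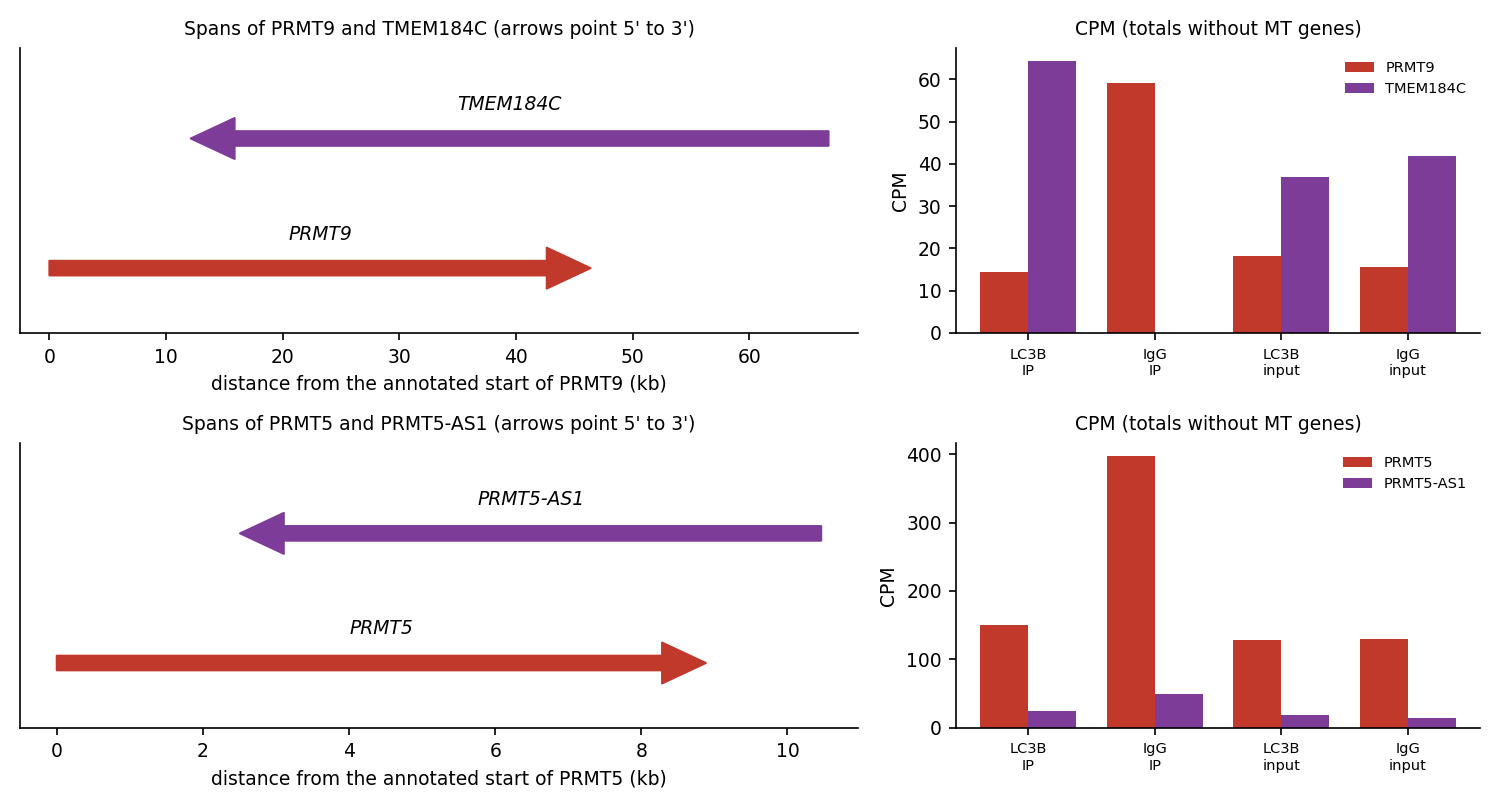
Left, spans of PRMT9 with TMEM184C and of PRMT5 with PRMT5-AS1 as distance in kb from the annotated start of the PRMT gene, with arrows pointing 5′ to 3′. Right, CPM of both genes of each pair in the 4 libraries: TMEM184C has 0 CPM in the IgG IP, where PRMT9 has 59.1, while PRMT5 and PRMT5-AS1 are both highest in the IgG IP.

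The 4-library pattern of PRMT1 was not rare. Likeness was measured as the largest absolute difference from PRMT1 in log2(CPM + 0.5), centred on each gene's mean over the 4 libraries, among 7147 genes that averaged 20 CPM or more. The 5 closest were IMPA2 (0.023), BRAT1 (0.038), BRD3OS (0.041), EGLN1 (0.042) and SLC41A1 (0.045), and 83 genes (1.16%) lay within 0.1 and 690 (9.65%) within 0.25. IMPA2, an inositol monophosphatase, had 60.8 CPM in the LC3B IP and 66.6 in the IgG IP, against 49.2 and 44.9 in the LC3B and IgG inputs. Within the family the distances from PRMT1 were 0.21 for PRMT2, 0.53 for PRMT7, 0.78 for PRMT6, 0.89 for PRMT5, 1.14 for PRMT9, 2.63 for CARM1 and 4.74 for PRMT3, so PRMT2 alone came within 0.25.

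Of genes that work with the family, 0 were called in the LC3B IP over its input in each of the 6 lists examined, beside 1.4% higher and 4.57% lower among all genes tested, so lists of 2 to 19 genes would hold few calls. With mitochondrial genes kept in the totals, 3 of the lists had 1 gene each called higher. Between the IPs, the counts below stand beside 33.8% of all genes tested called higher and 9.52% called lower. The list of 3 other arginine methyltransferases, PRMT8, NDUFAF7 and METTL23, had 2 measured genes, and 0 were called between the IPs. Of the 6 regulators and partners, 0 were called between the IPs (median log2 fold 0.14, against 0.43 over all genes tested). WDR77, the partner of PRMT5, was uncalled at 1.42 (1.32 to 1.53) between the IPs, where PRMT5 was lower, and BTG2, which binds PRMT1, was lower in the IgG IP than in its input at 0.302 (0.253 to 0.357). Of 7 measured genes of S-adenosylmethionine supply and clearance, 1 was higher and 1 lower with LC3B than with IgG (median -0.04): AHCY, which clears the inhibitory by-product S-adenosylhomocysteine, at 2.48 (2.24 to 2.75) and MAT2B, the regulatory subunit of the synthase, at 0.426 (0.402 to 0.452). Bounds of 4 and 0.25 left 0 of the 7 called, and in TPM 2 were lower. MAT2A, the catalytic subunit, was uncalled at 1.37 (1.28 to 1.46).

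Readers and removers of methylarginine had 4 of 8 measured genes higher with LC3B than with IgG and 0 lower (median 0.69), beside 33.8% higher among all genes tested, and the 4 became 2 with median-of-ratios scaling and 1 with bounds of 4 and 0.25. The 4 were the Tudor-domain genes SND1 at 5.28 (4.45 to 6.29), SMNDC1 at 4.54 (3.69 to 5.63) and TDRKH at 2.73 (2.08 to 3.63), and SPIN1, a reader of histone methylation, at 2.47 (2.11 to 2.92). Over the LC3B input they were uncalled, at 1.65 for SND1, 1.31 for SMNDC1, 1.51 for TDRKH and 0.678 for SPIN1. In the IgG IP over its input, 3 of the 8 were lower and 0 higher, beside 33.7% lower among all genes tested. Among 19 substrates of the asymmetric enzymes, 7 were higher and 0 lower with LC3B than with IgG (median 0.68). In the IgG IP over its input, 8 were lower. Of all genes tested, 33.8% and 33.7% were called in these directions. At 100 CPM or more in the inputs, where many of these substrates lay, the shares were 8.52% and 12.9%. Whether the list differs from other genes of its levels was not tested. With bounds of 4 and 0.25 the 7 became 3. RBM15, a PRMT1 substrate and RNA-binding protein, was at least 58.7-fold higher with 0 reads in the IgG IP. EP300, an acetyltransferase methylated by CARM1, stood at 18.9 (8.95 to 48.0), and FBL, the nucleolar enzyme fibrillarin, at 3.66 (3.16 to 4.26). KHDRBS1 at 2.73 (2.47 to 3.02) and HNRNPA2B1 at 2.59 (2.52 to 2.65), which encode RNA-binding proteins, were also higher. Over the LC3B input these substrates were uncalled, at 0.747 for RBM15, 1.34 for EP300, 1.11 for FBL, 1.05 for KHDRBS1 and 0.889 for HNRNPA2B1. Of 5 measured substrates of the symmetric enzymes 0 were called (median 0.21). Over the LC3B input, medians of the lists with at least 5 measured genes ran from -0.25 to 0.21. Reference transcripts on the same scale were GAPDH at 1.30 (1.29 to 1.31) and ACTB at 1.77 (1.76 to 1.79) between the IPs, and MALAT1, a nuclear long non-coding RNA, was lower with LC3B at 0.209 (0.204 to 0.213).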

How the data were processed

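The authors deposited raw read counts and TPM values for 4 libraries. Both tables group digits with commas; once these were removed each count was whole. TPM is the authors' length-corrected share, per the file headers. The tools cutadapt 2.8 and STAR 2.7.1a are named, beside build hg38, per the submitters' processing notes. The sources used here do not give the counting tool, annotation release or strand setting.

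From the counts, CPM was computed on totals without chromosome MT (10375786 reads in the LC3B IP, 9824400 in the IgG IP, 8542486 in the LC3B input, 8404123 in the IgG input). A gene was kept if its mean reached 1 CPM. Folds have exact conditional binomial (Clopper-Pearson) 95% intervals; the input-corrected ratio has 0.5 reads added and a log-normal interval. Libraries at 0 reads were given 3 reads for bounds. PCR reads without molecular identifiers are not independent molecules. Level classes use the mean CPM of both inputs (1 to 10, 10 to 30, 30 to 100, at least 100).

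The named genes are the 8 members, up to 6 called genes per list with the largest fold between the IPs, WDR77, MAT2A, SND1, FBL, the reference transcripts GAPDH, ACTB and MALAT1, and the 5 genes most like PRMT1. Of these, 1 gene of the lists is not reported here. Members and lists were chosen with earlier results of these data known. Scripts were tested on simulated data (Python 3.11.15, numpy 2.4.6, scipy 1.17.1, pandas 2.3.3). Alternatives were totals with MT genes or without the 10 most abundant genes, median-of-ratios and TMM factors from purpose-written code, deposited TPM, thinning, other filters and bounds, other added counts and, added after seeing the data, the other input.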

Additional observations from a re-analysis of the deposited data

Results flagged for a closer look

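For 2 genes the IPs moved in opposite directions from their own inputs, with both counting intervals away from 1; with 1 library per group the difference was not tested across samples. PRMT6 stood at 1.30 (1.12 to 1.51) over input with LC3B and at 0.614 (0.517 to 0.729) with IgG, an input-corrected ratio of 2.11 (1.69 to 2.64), uncalled, though called higher by its point fold and in TPM (2.19). PRMT9 stood at 0.791 (0.628 to 0.997) over input with LC3B and at 3.82 (3.16 to 4.66) with IgG, an input-corrected ratio of 0.208 (0.155 to 0.279), called lower, as were 7.65% of all genes tested. TMEM184C overlaps PRMT9 and had 0 reads in the IgG IP. For the sum of both genes, the folds over input were 1.43 (1.27 to 1.6) with LC3B and 1.03 (0.91 to 1.16) with IgG. The sum thus did not move in opposite directions, and the part of TMEM184C in the PRMT9 value was not tested.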

How the results depend on the processing

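No paired analysis was possible because each group holds 1 library. The folds of the 8 genes were recomputed under up to 13 alternatives per comparison, 438 values in all: 420 kept direction and call, 8 lost a call, 6 gained one and 4 changed direction. Other filters kept all 8 genes and left their folds and calls unchanged by construction. Other bounds, or point folds without intervals, could alter only a call. Part of the 420 was thus fixed in advance. PRMT1 kept direction and call throughout, at 0.866 to 0.989 between the IPs, 1.26 to 1.59 over the LC3B input and 1.35 to 1.83 for IgG over input. Direction changed only between the inputs, near 1 and uncalled: PRMT5 at 1.01 with MT genes in the totals and 1.04 in TPM, PRMT2 at 0.996 with median-of-ratios and 0.975 in TPM. Bounds of 4 and 0.25 left 0 of the 8 genes lower between the IPs, 0 higher in the IgG IP over input and 0 with a lower input-corrected ratio. Without intervals 1 of the 8, PRMT3, was lower over the LC3B input (0.490), and the input-corrected ratio gained a higher call for PRMT6 (2.11) and a lower one for PRMT7 (0.493). In TPM that ratio also gained calls for PRMT6 (2.19) and PRMT7 (0.378), and PRMT7 was lower between the IPs (0.416). PRMT7 lost its IgG call against the other input (2.14), an alternative chosen after seeing the data.

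Counts over all genes moved more. With MT genes in the totals, calls over the LC3B input became 880 higher and 265 lower (216 and 706 without), and 2355 were higher in the IgG IP over input (1495 without). In TPM, called without intervals, 2319 were lower between the IPs, 2462 higher and 1154 lower over the LC3B input, 3300 higher for IgG over input, 748 higher and 428 lower between the inputs, and 2562 had a lower input-corrected ratio. Point folds gave 2227 lower between the IPs, 1225 higher and 1715 lower over the LC3B input, 2306 higher for IgG over input, 462 higher and 324 lower between the inputs, and 2349 with a lower input-corrected ratio. Bounds of 4 and 0.25 gave 383 lower between the IPs, 13 higher and 50 lower over the LC3B input, 366 higher for IgG over input, 6 higher and 9 lower between the inputs, and 2729 higher and 263 lower input-corrected ratios. A filter of 5 CPM left 2923 higher between the IPs, 2989 lower for IgG over input, 1 higher and 6 lower between the inputs and 2757 higher input-corrected ratios, and no filter gave 61 higher and 53 lower between the inputs. Adding 0.1 reads gave 2720 higher input-corrected ratios. Apart from TPM, these alternatives changed the genes tested, the totals, the added reads, the bound or the use of an interval. The use of TPM changed the measure and also dropped the interval, and the part of each in its shifts was not tested. Low counts limit the folds of PRMT3 and CARM1, with 0 and 3 reads in the IgG IP: the fitted input-corrected ratio of PRMT3 ran from 180 to 1790 over the alternatives (at least 59.8 on the floor of 3 reads), and that of CARM1 from 18.4 to 28.5.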
